A study of Drosophila mojavensis with 172 samples.

Results

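A set of 200 transcripts, of the 14528 measured in Drosophila mojavensis, was high in eggs and in mature females and low in larvae and pupae. They were chosen by 1 rule on these arrays. The level of a stage was the mean of its 4 combinations of population and diet, with equal weights. For each transcript the margin was the lowest level among 6-hour eggs and females of 6, 10, 14, 18 and 24 days, minus the highest level among the 3 larval instars, early pupae and late pupae. The 200 largest margins made the set. The contrast of eggs and mature females with larvae and pupae is therefore given as a description, with no test. Females of 0 and 3 days did not enter the rule, and neither did differences between diets or between populations, so these were tested. Days 0 and 3 lie between late pupae and 6 days, however, and a rise over that span follows from the rule.

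The series followed gene expression through the life of D. mojavensis, a fly that breeds in rotting cacti of the Sonoran Desert, on 172 1-colour arrays. Wild-type flies came from Punta Prieta in Baja California (90 arrays) and from Las Bocas in Sonora (82 arrays), and were reared on laboratory medium made with organ pipe cactus (75 arrays) or agria cactus (97 arrays). For eggs the diet is that of the mothers. Adults were females, and the sex of the earlier stages is not given in the labels. Stages comprised 6-hour eggs (16 arrays), first, second and last instars (14, 16 and 15), early and late pupae (14 and 11), and adult females of 0 days (18), 3 days (15), 4 days (2), 6 days (14), 10 days (12), 14 days (10), 18 days (9) and 24 days (6). A group is 1 population on 1 diet at 1 stage, with 1 to 5 arrays. Levels are log2 signals, so a difference of 1 is a doubling of the signal. The arrays carry no gene names here, so transcripts are given by ID and their products are not described. For the same reason the set could not be checked against genes known to mark the ovary.

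In Drosophila, much of the RNA of a laid egg is made in the mother. Nurse cells of the ovary transcribe it and pass it into the growing oocyte, and the embryo uses it before its own genome takes over. Females eclose with immature ovaries, and egg chambers fill with such RNA during the first days of adult life, at a pace that depends on food. In bulk RNA, fewer cells of a type and less RNA per cell cannot be told apart.

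Array medians over all transcripts ranged from 10.96 to 11.48 and array SDs from 1.28 to 1.77, so the arrays did not share 1 distribution. Some arrays lay nearer to another stage than to their own: for 14 arrays, 11 of them larval, the correlation with another stage's mean was higher by over 0.05. Of the others, replicates 2 and 3 of late Punta Prieta pupae on agria lay nearer to early pupae and to the first instar, and the fourth 0-day array of Las Bocas on agria lay nearer to the first instar. All 4 first-instar arrays of Las Bocas on agria were among the 14. Without the other 10 arrays the rule returned 184 of the same 200 transcripts. The labels do not say whether replicates are separate cultures. The p-values then reflect the spread among these arrays alone, and that spread may be technical.

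Averaged over the 200 transcripts, the stage level was 13.12 in eggs, 10.33, 10.31 and 10.22 in the 3 instars, and 10.21 and 10.19 in early and late pupae. In adult females the level was 10.98 on day 0, 12.11 on day 3, 12.62 on day 6, 12.74 on day 10, 12.83 on day 14, 13.00 on day 18 and 12.87 on day 24. The median stage level over all 14528 transcripts stayed between 11.03 and 11.37. On single arrays the mean over the set lay between 11.81 and 13.30 in the 67 arrays of eggs and 6- to 24-day females, and between 10.02 and 10.87 in the 70 arrays of larvae and pupae. The highest larval value was in first instars of Las Bocas on agria, with 10.51 to 10.87 on 4 arrays that all lay nearer to later instars.

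**Figure D1:**
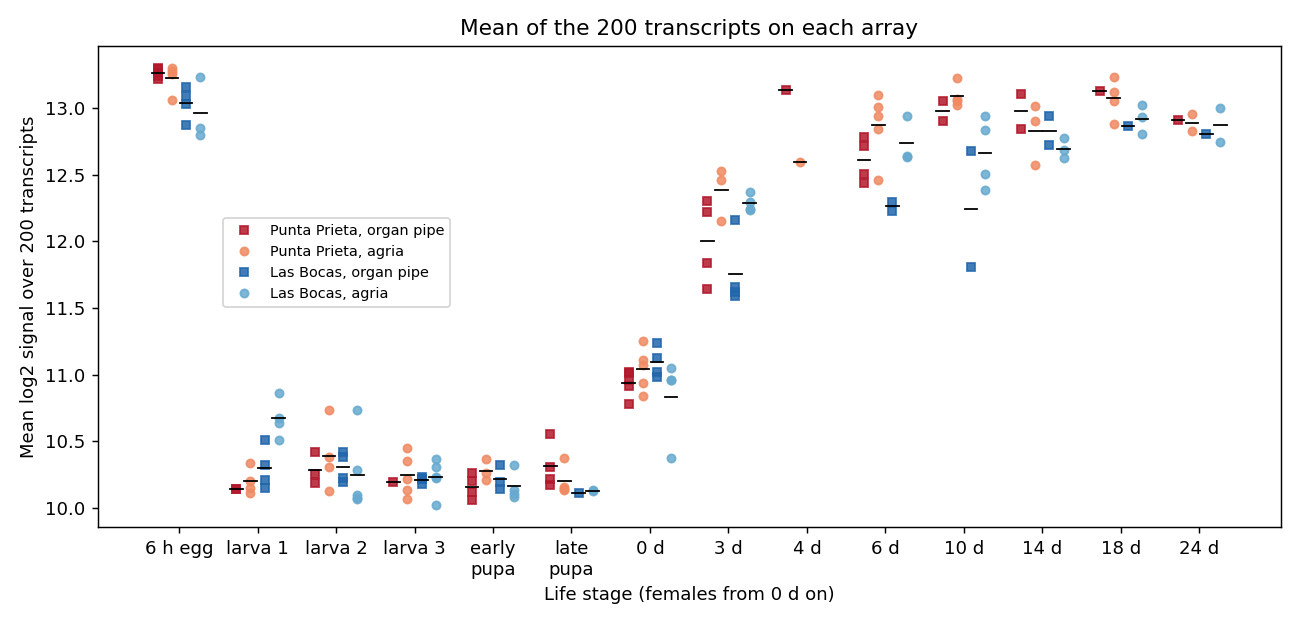
Mean log2 signal over the 200 transcripts (y axis) on each of the 172 arrays by life stage (x axis). Each point is an array, colours and shapes give population and diet, and short black lines are group means; values were near 10 in larvae and pupae, 10.37 to 11.25 at 0 days and 11.59 to 12.53 at 3 days.

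Margins ran from 4.15 to 1.67, with a median of 1.90. The largest belonged to FBtr0162538, whose lowest level in eggs and mature females was 13.42 and whose highest level in larvae and pupae was 9.27. In 6-hour eggs FBtr0162538 ranged over 16 arrays from 13.07 to 14.26 with a median of 13.86. Its late pupal arrays lay between 8.50 and 9.63, its 0-day arrays between 9.31 and 10.24 and its 3-day arrays between 11.35 and 13.25. FBtr0160780 was next, with a margin of 4.08. Its median was 14.62 in eggs, 9.66 in late pupae, 10.99 at 0 days, 14.35 at 3 days and 14.69 at 10 days. Thus both lay clear of the larval and pupal range on every 3-day array. The last transcript inside the set, FBtr0169849, had a margin of 1.6697, and the first outside it, FBtr0167534, one of 1.6690. No step in the margin separates the set from what follows, as 1128 transcripts had a margin of at least 1.

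Egg levels were close to or above those of mature females. The egg level was above the 10-day level for 174 of the 200 transcripts, with a median difference of 0.36 and a range from -0.32 to 1.30. Eggs had the highest level of all stages for 121 transcripts and females of 18 days for 62. Among eggs and mature females, the lowest level was at 6 days for 153 transcripts and in eggs for 16.

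The transcripts rose in the first 3 days of adult life. A rise between late pupae and 6 days is built into the rule. The shares of all transcripts given here are therefore no independent yardstick, and the test bears on when the rise took place. Of the 200, 181 were higher and none was lower at 3 than at 0 days (limma, adjusted p under 0.05), where 23.2% of all transcripts were called higher, 20.1% lower and 43.3% either way. Their median change was 0.85 on the log2 scale, against -0.05 over all transcripts, and 198 of 200 had a positive change. A rise of at least 1 log2 unit was called for 81, against 3.6% of all transcripts. For 66 of the 200, every one of the 15 arrays at 3 days lay above all 18 at 0 days, which held for 2.33% of all transcripts. Without the fourth 0-day array of Las Bocas on agria the number called was 180. With that array and the first 3-day array of Las Bocas on organ pipe both left out, 175 were higher and 1 was lower.

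The steepest rise was that of FBtr0161796, by 3.83 (SE 0.17, limma adjusted p = 5.84e-44). At 3 days its arrays ranged from 13.31 to 15.33 with a median of 14.86, and at 0 days from 9.86 to 12.28 with a median of 10.64, so the 2 ages did not overlap. FBtr0162972 rose by 3.76 (SE 0.16, adjusted p = 1.51e-44). It ranged from 12.61 to 15.03 at 3 days and from 9.77 to 11.08 at 0 days. By 10 days its median was 15.03, a level close to the 15.11 of eggs.

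The set was not uniform in when it came on. For each transcript the 0-day level was placed on a scale from its late pupal level (0%) to its 10-day level (100%). This position had a median of 36.7% at 0 days, with quartiles of 11.7% and 54.4%. At 0 days 47 transcripts were under 10% and 64 over 50%. At 3 days the median position was 75.8%, and 192 transcripts were over 50%. FBtr0170917 had gone furthest by 0 days, with a level of 12.32 at 0 days, 10.56 in late pupae and 12.29 at 10 days. The fourth 0-day array of Las Bocas on agria stood apart for this transcript, with 9.95 against 11.95 to 12.22 on the other 3 arrays of its group. At the other end was FBtr0168096, at -105%, since its 0-day level of 10.09 was below its late pupal level of 12.26. In late pupae on organ pipe FBtr0168096 had 13.35, 12.37, 13.27 and 13.26 in Punta Prieta and 12.35 in Las Bocas. On agria it had 10.80, 9.95, 10.05 and 13.23 in Punta Prieta late pupae, the middle pair being the arrays nearer to earlier stages, and 12.17 and 13.07 in Las Bocas. On all 18 arrays of 0-day females it lay at 11.21 or below, and on all 15 arrays of 3-day females at 12.10 or above.

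**Figure D2:**
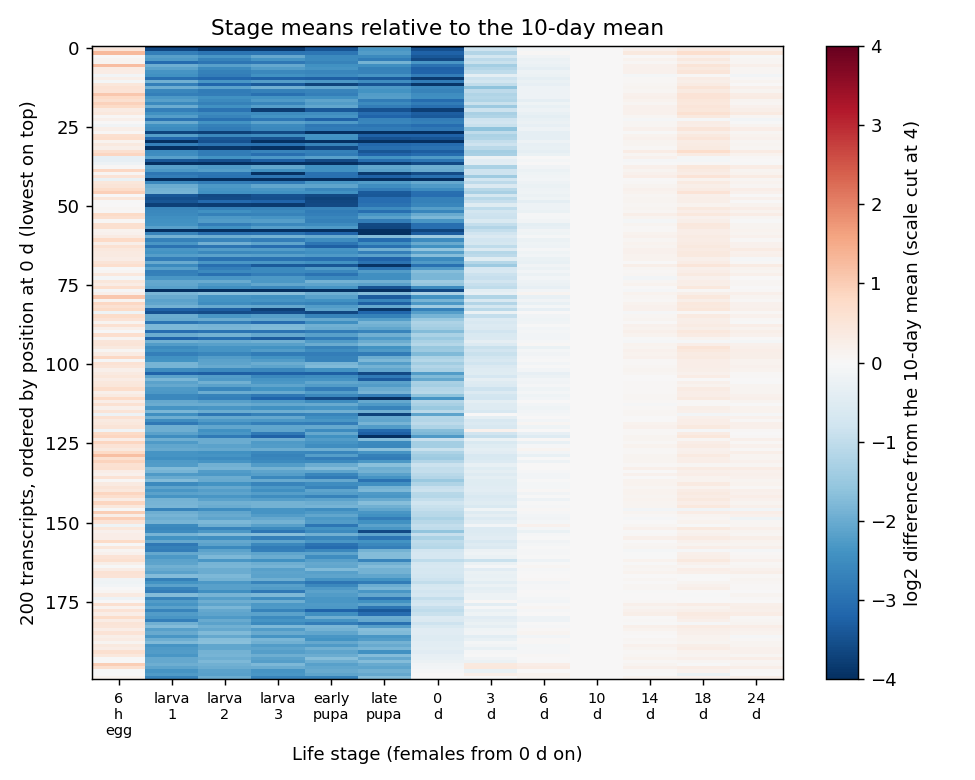
Stage levels of the 200 transcripts (rows) minus their own 10-day level, in log2 units, by life stage (columns). Rows are ordered by position at 0 days, and red is above and blue below the 10-day level; the 0-day column is as dark as late pupae at the top and close to the 10-day level at the bottom, and 3-day levels lie nearer to 10 days.

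At 3 days the transcripts were lower in females reared on organ pipe than on agria. Of the 200, 94 were lower and none was higher on organ pipe (limma, adjusted p under 0.05), where 4.58% of all transcripts were lower and 7.23% higher. The median difference, organ pipe minus agria, was -0.44 over the set and -0.02 over all transcripts, and 179 of the 200 were negative. The median was -0.39 in Punta Prieta and -0.49 in Las Bocas. Within Punta Prieta alone limma called 0 transcripts, in the set or outside it, with 35.5% of the 200 and 7.55% of all transcripts at an unadjusted p under 0.05. Array weights called 107 of the 200, or 53.5%, against 32.2% of all transcripts. Within Las Bocas alone 70 of the 200 were lower, against 2.77% of all transcripts. The difference between the 2 populations' diet effects was called for none of the 200 and for 0.0206% of all transcripts. At an unadjusted p under 0.05 there were 7 of the 200 (3.5%, against 1.31% of all transcripts), and array weights called 13 (6.5%, against 2.32%).

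The means over the set on single 3-day arrays show how this split. Punta Prieta females had 11.84, 12.30, 12.22 and 11.64 on organ pipe, and 12.15, 12.53 and 12.46 on agria, so the diets overlapped. Las Bocas females had 12.16, 11.62, 11.59 and 11.66 on organ pipe, and 12.37, 12.23, 12.30 and 12.25 on agria, with no overlap. The first organ pipe array of Las Bocas stood apart from the other 3 and lay nearest to the agria values. In Las Bocas, all organ pipe arrays lay below all agria arrays for 97 of the 200 transcripts, against 11% of all transcripts. In Punta Prieta this held for 15 of the 200, against 2.48%. Without the second 3-day array of Punta Prieta on agria 59 transcripts were called, and without the Las Bocas array that stood apart and the fourth 0-day array of Las Bocas on agria 104 were called.

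FBtr0162972 differed most by diet. At 3 days it had 13.62, 14.72, 14.17 and 12.61 on organ pipe and 14.02, 15.03 and 15.01 on agria in Punta Prieta. In Las Bocas it had 14.48, 12.73, 12.68 and 12.64 on organ pipe and 14.67, 15.02, 14.73 and 14.73 on agria. The difference was -1.28 (SE 0.24, limma adjusted p = 7.87e-05). In Las Bocas 3 of 4 organ pipe arrays thus lay well below the agria arrays, and the other lay close to them. FBtr0170828 was next, with a difference of -1.21 (SE 0.19, limma adjusted p = 4.16e-06). It had 11.29, 12.72, 12.24 and 11.05 on organ pipe and 12.21, 13.32 and 13.11 on agria in Punta Prieta. Las Bocas females had 12.52, 11.13, 10.99 and 10.91 on organ pipe and 12.89, 12.88, 12.72 and 12.50 on agria.

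**Figure D3:**
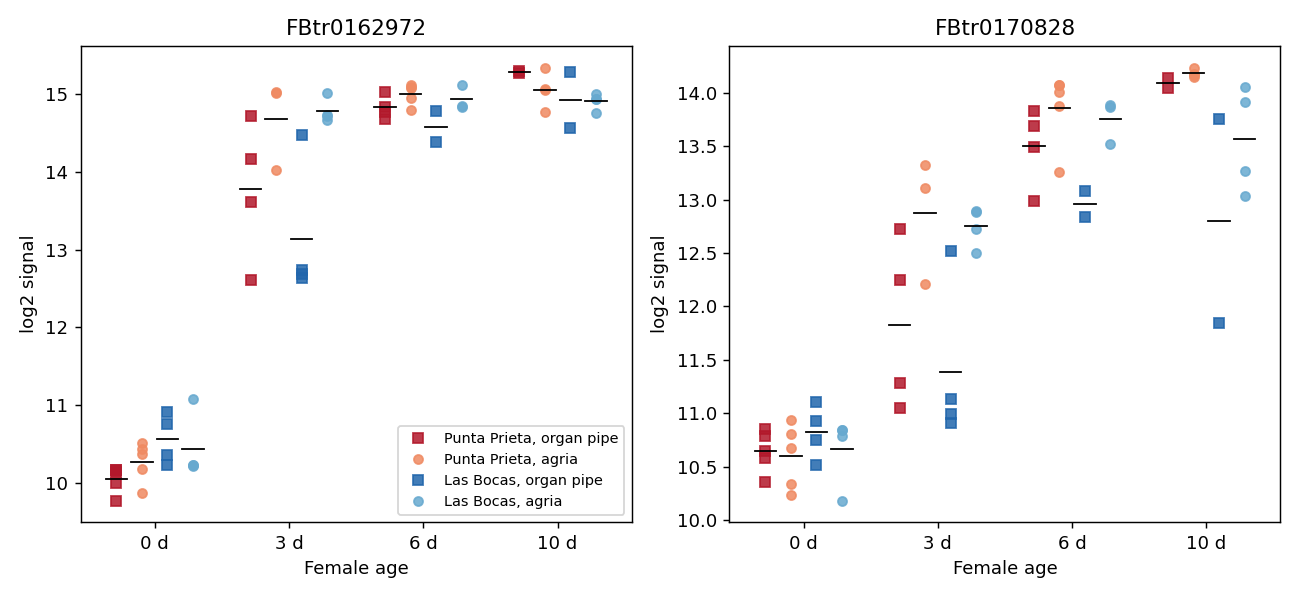
Log2 signal (y axis) of FBtr0162972 and FBtr0170828, the pair with the largest diet differences at 3 days, in females of 0, 3, 6 and 10 days (x axis). Each point is an array and short black lines are group means; at 3 days organ pipe arrays spread widely, from 12.61 to 14.72 for FBtr0162972 and from 10.91 to 12.72 for FBtr0170828, with group means below agria in both populations.

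At 0 days no such difference was called. In newly eclosed females limma called 0 of the 200 by diet, with 3 at an unadjusted p under 0.05 (1.5%, against 3.06% of all transcripts) and 1 called with array weights (0.5%, against 0.647%). Over all transcripts 0.00688% were called without weights, and the median difference over the set was 0.08. Of the 200, 157 were higher on organ pipe, where 47.5% of all transcripts were lower. The mean over the set at 0 days was 11.09 on organ pipe and 10.84 on agria in Las Bocas, where the fourth agria array had 10.37. In Punta Prieta it was 10.94 on organ pipe and 11.04 on agria. These 0-day differences enter the change from 0 to 3 days. The change from 0 to 3 days itself differed between diets: it was smaller on organ pipe for 45 transcripts and larger for none, against 0.902% and 1.51% of all transcripts, and 2.41% either way. Over the set the median change from 0 to 3 days was 0.83 on organ pipe and 1.07 on agria in Punta Prieta, and 0.48 on organ pipe and 1.16 on agria in Las Bocas. The count of 45 moved with single arrays. Of 3-day Punta Prieta arrays on agria, leaving out replicate 1, 2 or 3 gave 71, 14 or 17. Of those on organ pipe, leaving out replicate 1, 2 or 4 gave 24, 72 or 25, and it was 25 without replicate 3 of Las Bocas on organ pipe. By population, limma called 0 of the 200 for a difference in the change from 0 to 3 days, where 0.0551% of all transcripts were called. Of the 200, 32 had an unadjusted p under 0.05 (16%, against 12.5% of all transcripts), and array weights called 91 (45.5%, against 30.7%).

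Transcripts that had come on least by 0 days differed most by diet at 3 days. In the 67 transcripts with the lowest 0-day position, at 19.8% or below, 61 were lower on organ pipe and the median difference was -0.82. In the middle 66, from 20.3% to 48.9%, 25 were lower, with a median of -0.38. In the 67 with the highest position, 8 were lower, with a median of -0.15. These counts are 91%, 37.9% and 11.9% of the 3 parts, against 4.58% of all transcripts lower on organ pipe. In Punta Prieta alone the 3 medians were -0.63, -0.32 and -0.20, and in Las Bocas alone -1.02, -0.46 and -0.13. Across the 200 transcripts the position at 0 days and the diet difference at 3 days had a Pearson r of 0.77 and a Spearman rho of 0.78, given as a description. The position uses late pupal, 0-day and 10-day arrays and the difference uses 3-day arrays, so the pair share transcripts but no arrays. Pearson's r was 0.76 without the 3 late pupal and 0-day arrays that lay nearer to another stage. The early transcripts also had less far to go, as the median distance from the 0-day to the 10-day level was 2.95, 1.44 and 0.80 in the 3 parts.

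**Figure D4:**
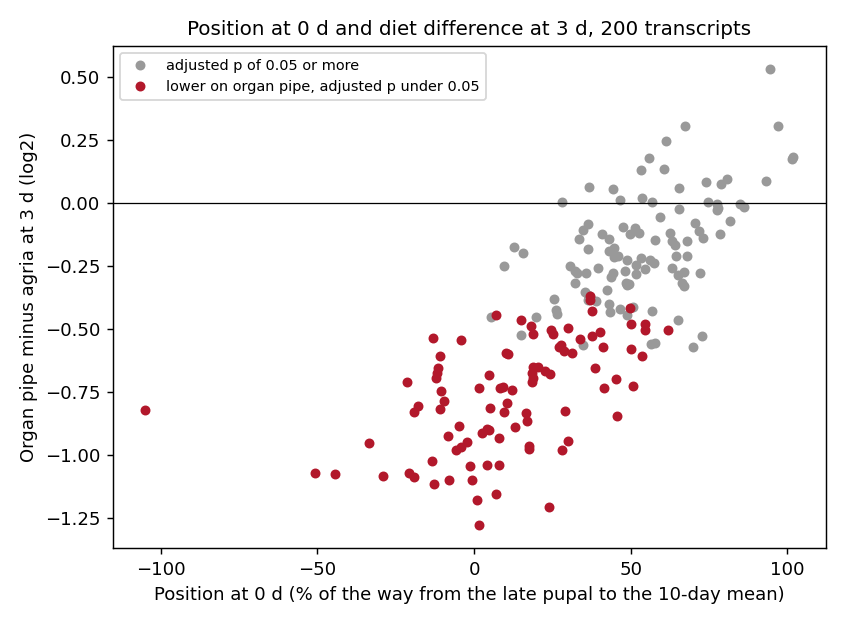
Difference between diets at 3 days, organ pipe minus agria, in log2 units (y axis) against the position at 0 days in percent of the way from the late pupal to the 10-day level (x axis), for the 200 transcripts. Red points passed the test for the diet difference (94, all lower on organ pipe) and grey points did not; the difference shrinks towards 0 as the position rises.

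The difference at 6 days had the same sign and was smaller in count. Of the 200, 20 were lower and none was higher on organ pipe, where 0.909% of all transcripts were lower, 2.55% higher and 3.46% either. The median was -0.38, against -0.06 over all transcripts, and 190 of 200 were negative. By population the median was -0.25 in Punta Prieta and -0.48 in Las Bocas. Within Las Bocas alone limma called 0 of the 200, against 0.0344% of all transcripts, and within Punta Prieta alone 0, against 0.0275%. Of the 20, 15 were also among the 94 at 3 days, which is 75% of the shorter list and 16% of the longer. The 94 were 47% of the 200, the share to set beside the 75%. The means over the set on 6-day arrays were 12.78, 12.72, 12.44 and 12.51 on organ pipe and 13.01, 12.84, 13.09, 12.46 and 12.94 on agria in Punta Prieta. In Las Bocas they were 12.23 and 12.30 on organ pipe and 12.63, 12.64 and 12.94 on agria. Hence Las Bocas arrays did not overlap, while 1 agria array of Punta Prieta lay among those on organ pipe. At an unadjusted p under 0.05 Las Bocas had 36% of the 200, against 8.01% of all transcripts, and Punta Prieta 11%, against 12.9%. Array weights called 0.5% in Las Bocas, against 0.248%, and 45.5% in Punta Prieta, against 31.3%. In Las Bocas all organ pipe arrays lay below all agria arrays for 147 of the 200, against 16.6%. In Punta Prieta this held for 5, against 3.57%. FBtr0166356 had the largest difference, -0.93 (SE 0.21, limma adjusted p = 0.0057), and FBtr0168225 followed with -0.88 (SE 0.18, limma adjusted p = 0.00148). In Las Bocas FBtr0168225 had 10.99 and 11.24 on organ pipe and 11.81, 12.15 and 12.73 on agria.

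The 6-day count depended on how the spread was estimated and on single arrays. With the spread of 6-day arrays alone none of the 200 was called, with array weights 139 were (69.5%, against 23.9% of all transcripts), and with array medians subtracted 34 were. On agria it was 36, 4 and 4 without replicates 1, 2 and 3 of Las Bocas, and 6, 13, 7, 57 and 13 without replicates 1 to 5 of Punta Prieta. On organ pipe it was 3 and 2 without replicates 1 and 2 of Las Bocas, and 6 without replicate 3 or 4 of Punta Prieta.

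After 6 days limma without array weights called diet differences for at most 1 of the 200. In 10-day females 183 of the 200 were still lower on organ pipe, against 53.9% of all transcripts. There, 46 had an unadjusted p under 0.05 (23%, against 14.9%), and array weights called 85 (42.5%, against 24.3%). At 10 days FBtr0165084 was lower on organ pipe (-0.69, SE 0.16, limma adjusted p = 0.0363), where 0.103% of all transcripts were lower and 0.0757% higher, and the median over the set was -0.27. FBtr0165084 had 11.20 and 11.53 on organ pipe and 11.67, 12.16, 11.79 and 11.84 on agria in Punta Prieta. In Las Bocas it had 9.77 and 10.87 on organ pipe and 11.02, 11.38, 11.47 and 10.91 on agria. That call moved with single arrays. None was called without replicate 1 of Las Bocas or replicate 1 or 2 of Punta Prieta on organ pipe, replicate 2 or 3 of Las Bocas on agria, or replicates 2, 3 or 4 of Punta Prieta on agria. The count was 34 without replicate 2 of Las Bocas on organ pipe, 2 without replicate 4 of Las Bocas on agria and 5 without replicate 1 of Punta Prieta on agria. In 14-day females limma gave 0 calls in the set and 0 over all transcripts, and the median was 0.14. The sign there was opposite to that at 10 days: 185 of the 200 were higher on organ pipe, where 45.3% of all transcripts were lower. Of the 200, 1 had an unadjusted p under 0.05 (0.5%, against 2.19% of all transcripts). Array weights gave 12 calls, all higher on organ pipe, which is 6% of the 200 against 18.5% of all transcripts. Organ pipe had 1 array per population on days 18 and 24, where the medians were -2.96e-05 and -0.01. In 6-hour eggs, by the diet of their mothers, limma called 0 of the 200 and 0 of all transcripts, also with array weights. At an unadjusted p under 0.05 there were 0 of the 200, against 1.05% of all transcripts. The median there was 0.06, with a range from -0.24 to 0.32.

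Eggs differed by population, in a count that moved with single arrays. In 6-hour eggs 27 of the 200 were higher and 1 was lower in Punta Prieta than in Las Bocas, where 3.53% of all transcripts were higher, 1.36% lower and 4.89% either. The median difference, Punta Prieta minus Las Bocas, was 0.25 over the set and -0.02 over all transcripts, and 168 of the 200 were positive. The mean over the set was 13.26 ± 0.04 (SD, n = 5) in Punta Prieta and 13.04 ± 0.12 (n = 4) in Las Bocas on organ pipe. On agria it was 13.22 ± 0.11 (n = 4) in Punta Prieta and 12.96 ± 0.24 (n = 3) in Las Bocas. Las Bocas replicate 1 on agria, with 13.23, lay at the Punta Prieta level, while the other 2 lay at 12.80 and 12.85. The count was 46 without that array, and 7, 7, 12 and 17 without replicate 2 or 3 of Las Bocas on agria, replicate 3 of Las Bocas on organ pipe and replicate 3 of Punta Prieta on agria. It was 7 after a repeated quantile normalization. For 73 of the 200 all organ pipe eggs of Punta Prieta lay above all those of Las Bocas, against 8.33% of all transcripts. On agria this held for 12 of the 200, against 3.23%.

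FBtr0165749 had the largest egg difference, 1.36 (SE 0.19, limma adjusted p = 1.1e-07). On organ pipe it had 11.43, 11.15, 11.21, 11.62 and 11.24 in Punta Prieta and 10.15, 9.96, 9.30 and 10.66 in Las Bocas. On agria it had 11.51, 10.69, 11.57 and 11.44 in Punta Prieta and 11.13, 9.20 and 9.33 in Las Bocas. The organ pipe groups did not overlap and the agria groups did. FBtr0173749 was higher by 1.00 (SE 0.18, limma adjusted p = 5.37e-05). Its agria arrays had 11.26 to 11.64 in Punta Prieta and 11.48, 10.62 and 8.77 in Las Bocas, so they overlapped. On organ pipe it ranged from 11.42 to 11.68 in Punta Prieta and from 10.21 to 11.16 in Las Bocas. The lower one was FBtr0166300, by -0.56 (SE 0.15, limma adjusted p = 0.0142).

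Among females, the median difference between populations was highest at 10 days, and the calls there rested on few arrays. At 10 days 117 of the 200 were higher and none was lower in Punta Prieta, where 11.4% of all transcripts were higher and 9.59% lower. The median was 0.59, and 0.04 over all transcripts. The means over the set were 12.90 and 13.05 in Punta Prieta and 11.81 and 12.68 in Las Bocas on organ pipe. On agria they were 13.05, 13.22, 13.07 and 13.02 in Punta Prieta and 12.51, 12.83, 12.94 and 12.38 in Las Bocas, with no overlap. Without replicate 1 of Las Bocas on organ pipe, the array at 11.81, 5 of the 200 were called, and without replicate 2 of Punta Prieta on organ pipe 66 were. For 82 of the 200 all agria arrays of Punta Prieta lay above all those of Las Bocas, against 10.9% of all transcripts. FBtr0172620 had the largest difference, 1.26 (SE 0.21, limma adjusted p = 7.3e-06). It had 13.18 and 13.37 in Punta Prieta and 10.73 and 12.74 in Las Bocas on organ pipe, and 13.39, 13.75, 13.55 and 13.61 in Punta Prieta and 12.38, 12.99, 13.07 and 11.95 in Las Bocas on agria. FBtr0162289 followed with 1.21 (SE 0.23, limma adjusted p = 7.12e-05).

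Of the 27 transcripts higher in Punta Prieta eggs, 21 were also among the 117 at 10 days, which is 77.8% of the first list and 17.9% of the second. The 117 were 58.5% of the 200, the share to set beside the 77.8%. Eggs and females were on different arrays. Across the 200 transcripts the differences in eggs and at 10 days had a Pearson r of 0.22 and a Spearman rho of 0.19, given as a description.

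At other ages population differences were called for few of the 200 or none, but from 3 days on most were positive, that is higher in Punta Prieta. Positive differences numbered 180 of the 200 at 3 days, 192 at 6 days and 176 in agria-reared females of 14 to 24 days. Over all transcripts 44.3%, 51% and 49.7% were negative there. At 0 days 114 of the 200 were positive, where 45.7% of all transcripts were negative. For 3-day females limma gave 0 calls, against 0.358% of all transcripts, with a median of 0.18. There, 21 had an unadjusted p under 0.05 (10.5%, against 4.26% of all transcripts), and array weights called 102 (51%, against 14.1%). For 6-day females it gave 0 calls, against 0.0551% of all transcripts called higher, with a median of 0.24. There, 36 had an unadjusted p under 0.05 (18%, against 5.16%), and array weights called 6 (3%, against 1.81%). In agria-reared females of 14 to 24 days it gave 0 calls, against 0.268% of all transcripts, with a median of 0.10. There, 7 had an unadjusted p under 0.05 (3.5%, against 3.18%), and array weights called 5 (2.5%, against 3.45%). At 0 days 4 were higher and 1 was lower in Punta Prieta, against 1.04% and 1.44% of all transcripts, and this became 19 higher and 32 lower with array weights. Those 51 are 25.5% of the 200, against 24.3% of all transcripts under the same weights. FBtr0174427 was higher by 0.83 (SE 0.18, limma adjusted p = 0.00237) and FBtr0166912 by 0.53 (SE 0.12, limma adjusted p = 0.00422). FBtr0160780, next to largest in margin, was the lower one (-0.56, SE 0.15, limma adjusted p = 0.0266). FBtr0174427 ranged from 10.90 to 11.75 in Punta Prieta and from 9.06 to 11.24 in Las Bocas. The count at 0 days was between 2 and 15 when single arrays were left out, lowest without replicate 4 of Las Bocas on agria (1 higher and 1 lower) and highest without replicate 4 of Las Bocas on organ pipe. It also moved by over 1.5 times without replicates 2 and 3 of each of these groups, replicates 1, 4 and 5 of Punta Prieta on agria, or replicate 5 of Punta Prieta on organ pipe.

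**Figure D5:**
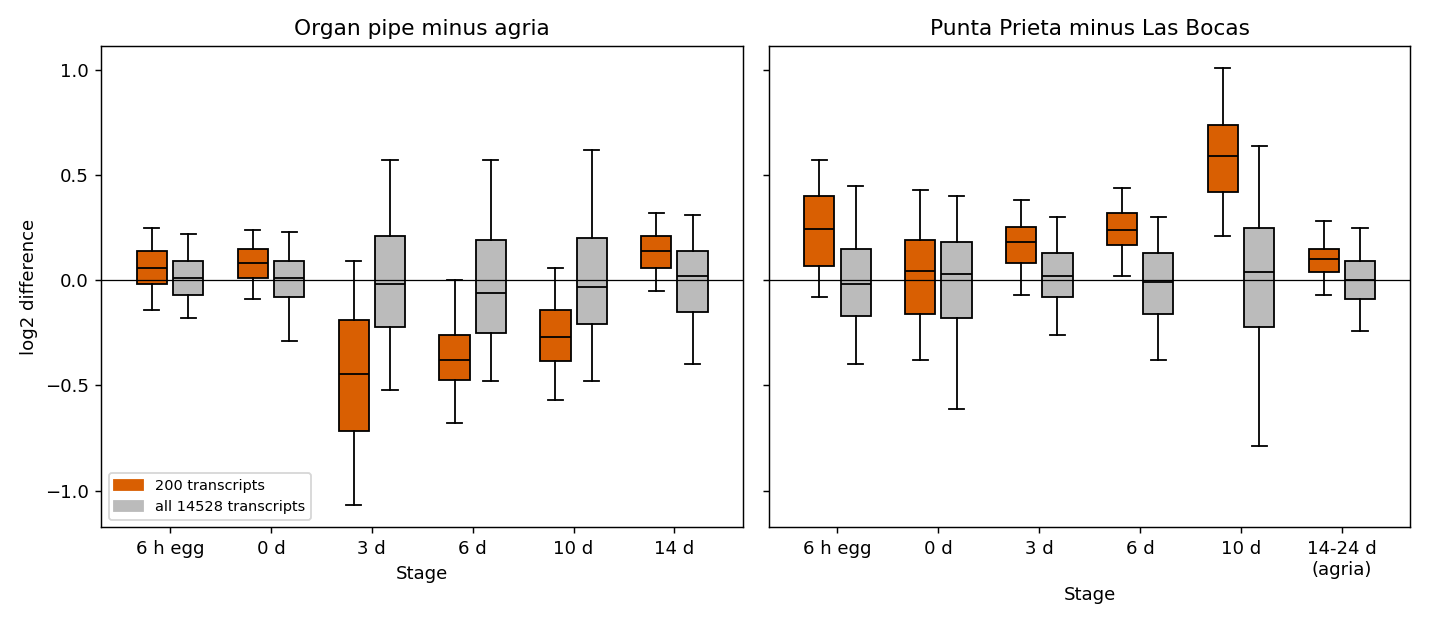
Log2 differences (y axis) between diets, organ pipe minus agria (left), and between populations, Punta Prieta minus Las Bocas (right), by stage (x axis), for the 200 transcripts (orange) and all 14528 (grey). Boxes are quartiles with the median, and whiskers run from percentile 5 to 95 over transcripts; the orange boxes lie below 0 at 3, 6 and 10 days on the left and highest at 10 days on the right.

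The ages from 6 to 24 days entered the rule, so linear slopes over 6, 10, 14, 18 and 24 days are given as values. On organ pipe the median slope was 0.0149 per day in Punta Prieta and 0.0372 per day in Las Bocas, with 184 and 197 of the 200 positive. On agria it was -2.36e-05 per day in Punta Prieta and 0.0127 per day in Las Bocas, with 100 and 156 positive. Over all transcripts the shares of positive slopes in the 4 series lay between 52% and 54.5%. The slope on organ pipe minus that on agria had a median of 0.021 per day and was called for none of the 200, against 0.0138% of all transcripts called higher. There, 36 had an unadjusted p under 0.05 (18%, against 4.87% of all transcripts), and array weights called 4 (2%, against 0.317%). For populations the slope difference, Punta Prieta minus Las Bocas, had a median of -0.017 per day and was called for 0 of the 200 and 0 of all transcripts, also with array weights. There, 7 had an unadjusted p under 0.05 (3.5%, against 0.619%). Both slopes include single organ pipe arrays at 18 and 24 days.

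Within groups, most of the transcripts varied together. Over the 80 arrays of females in groups of at least 2, the deviation of each transcript from its group mean was set against the mean deviation of all the others. The correlation had a median of 0.73 and was over 0.5 for 171 of the 200, with a lowest value of -0.145. The same 200-transcript mean correlated above 0.5 with 2439 of the other 14328 transcripts, or 17%. These arrays share their groups and their scaling, and the correlations are a description.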

How the data were processed

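Total RNA was copied into double-stranded cDNA, labelled with Cy3 and hybridised as 1 sample per array, per the labels' protocols. The authors deposited a single table of log2 expression values, for which the submitters' processing notes name RMA, a method that corrects background, normalizes quantiles and summarises probes; its version and software were not given in the sources used here. Groups came from the sample titles. For the first 14-day array of Las Bocas on agria 1 label gives 10 days, and it was kept at 14 days.

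The rule was applied to these values. The members, tests and lists were chosen with earlier results of these data known. limma 3.58.1 in R 4.3.3 was fitted to all 172 arrays and 14528 transcripts with 1 mean for each of 54 groups, leaving 118 residual degrees of freedom. The 8 groups with 1 array are assumed to vary like the rest. Contrasts weigh groups equally. P-values were adjusted by Benjamini-Hochberg over all transcripts, with calls at an adjusted p under 0.05. The number of arrays limits the precision.

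Transcripts are named by a rule: the 2 largest margins, those beside the edge of the set, the extremes of position at 0 days and, in each contrast, the called members with the largest rises and falls, at most 2 each way. The annotation table given with the data held 0 of the array's IDs, so gene names and marker lists were not used. Replicate numbers were not used to pair arrays in the main fit. Of 194 same-numbered pairs of the same stage, 79 had deviations correlated above 0.1. The mean correlation was -0.0114, against 0.00597 for pairs with different numbers. These means cannot exclude pairing in some of the groups. Alternatives were median subtraction, a repeated quantile normalization, array weights, a filter on dim transcripts, the spread of the stages concerned, a replicate block and leaving out arrays. The steps were tested on simulated data.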

Additional observations from a re-analysis of the deposited data

Results flagged for a closer look

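The mean over the 200 transcripts stood apart from its group on 3 arrays, out of 28 groups with 4 or 5 arrays; chance alone would pick about 1 in 20 groups. The fourth 0-day array of Las Bocas on agria had 10.37, against 10.96 to 11.05 on the other 3 arrays. The first 3-day array of Las Bocas on organ pipe had 12.16, against 11.59 to 11.66. Replicate 4 of late Punta Prieta pupae on agria had 10.38, against 10.14 to 10.16, and in that group replicates 2 and 3 lay nearer to earlier stages. The change from 0 to 3 days differed between the diets by the test of the interaction for 45 transcripts, all with a smaller change on organ pipe.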

How the results depend on the processing

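The numbers below are how many of the 200 transcripts were called. The rise from 0 to 3 days (181) was 175 to 190 under the settings below and 180 to 186 with 1 array left out. Array weights raised most counts, given here with the share of all transcripts called under the same weights. Diet rose to 1 at 0 days (0.647%), 149 at 3 (48.9%), 139 at 6 (23.9%), 85 at 10 (24.3%) and 12 at 14 days (18.5%). The 12 at 14 days were 6% of the 200, below that share. Population rose to 102 at 3 days (14.1%), 6 at 6 days (1.81%), 5 at 14 to 24 days on agria (3.45%) and 85 in eggs (21.8%). The difference in the change from 0 to 3 days rose to 129 by diet (28.9%) and 91 by population (30.7%). Diet by population at 3 days rose to 13 (2.32%), and the diet difference in age slope to 4 (0.317%). For population at 0 days (5) array weights gave 51, against 24.3% of all transcripts, with most lower in Punta Prieta, so the direction turned. Array weights also called between 0% and 62% of all transcripts in these comparisons. With array medians subtracted diet gave 34 at 6 days and 0 at 10 days. A repeated quantile normalization gave 0 for diet at 10 days, 7 for population in eggs and 27 for the diet difference in the change from 0 to 3 days. Without the dimmest 25% of transcripts diet at 10 days gave 0. With the spread of the stages concerned, diet gave 0 at 6 days and 9 at 10 days, and population at 0 days gave 1. With 1 array left out, diet gave 59 to 107 at 3 days, 2 to 57 at 6 days and 0 to 34 at 10 days, the diet difference in the early change gave 14 to 72, and population gave 2 to 15 at 0 days, 5 to 143 at 10 days and 7 to 46 in eggs. The lowest count at 0 days, 2 without the fourth array of Las Bocas on agria, came with a median of -0.04, so its sign turned too. The replicate block gave 180, 90 and 19 for the rise and for diet at 3 and 6 days, 41 for the diet difference in the early change, and 119 and 30 for population at 10 days and in eggs; it moved no count by over 1.5 times. Leaving out the pair of adult arrays that stood apart, chosen after seeing the data, gave 176, 104, 26 and 31 for the rise, diet at 3 and 6 days and population in eggs. The rule returned 188 of the 200 on median-centred values and 176 on requantiled values. The causes were not tested. Groups of 1 or 2 arrays on organ pipe from 10 days on limit the later comparisons.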

Other observations

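Females of 4 days were measured in Punta Prieta alone, with 1 array for each diet, and entered no comparison. The mean over the 200 transcripts was 13.14 on organ pipe and 12.60 on agria. The organ pipe array lay above each of the 4 Punta Prieta organ pipe arrays at 3 days, the highest of which had 12.30, and above the 4 at 6 days, the highest of which had 12.78. The order of the diets at 4 days was thus opposite to that of the group means at 3 days (12.00 on organ pipe and 12.38 on agria) and at 6 days (12.61 on organ pipe and 12.87 on agria). With 1 array each, this has no replicate check.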
